A study of Sus scrofa with 12 samples.

Results

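The genes of fibrillar collagens I, III and V were described in pig hearts after ischemia-reperfusion injury. The 6 genes, COL1A1, COL1A2, COL3A1, COL5A1, COL5A2 and COL5A3, were chosen by name, and each was found by its symbol among the 35682 genes counted, of which 15623 carried a symbol here. Yorkshire pigs, female and 10 to 12 weeks old by the study's methods, had the left anterior descending artery occluded by a balloon for 60 min. From day 9 all animals received tacrolimus (0.75 mg/kg per day), mycophenolate mofetil (500 mg per day) and prednisolone (20 mg per day). On day 14 they were given either vascular organoids, made of human endothelial progenitor cells and smooth muscle cells derived from human mesenchymal stem cells, on the surface of the heart, or fibrin glue alone. The hearts were taken on day 42. The 12 libraries came from the border zone, next to the infarct, and from the remote zone of the same 6 animals, named here by their numbers 1022, 1322, 1323, 1623, 1922 and 3622. Which animals received organoids was not used here, so both regions hold the same mixture of treatments, and every value within a region spans both. No library came from an uninjured heart.

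Fibrillar collagens are the load-bearing fibres of the heart's connective tissue. Procollagen chains are hydroxylated and wound into a triple helix in the endoplasmic reticulum, secreted mainly by fibroblasts, trimmed of their end propeptides and then assembled into cross-linked fibrils. After infarction, activated fibroblasts deposit these collagens as scar. Collagen I, the stiff main component of scar, joins chains of COL1A1 and COL1A2 with COL1A1 chains in excess. Collagen III, of COL3A1 chains alone, forms finer and more pliable fibrils, often mixed with collagen I. Collagen V, of COL5A1 and COL5A2 chains and in some tissues COL5A3, lies inside collagen I fibrils and sets where they start and how thick they grow.

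In RefSeq's annotation of Sscrofa11.1, the build that the authors used, the 6 genes lie in 5 places. COL1A1 (ENSSSCG00000036135) is at chr12:26379087-26397180 on the minus strand, and COL1A2 (ENSSSCG00000015326) at chr9:74174484-74210407 on the plus strand. COL3A1 (ENSSSCG00000016034, chr15:93556914-93595678, plus) and COL5A2 (ENSSSCG00000016035, chr15:93611856-93981131, minus) are neighbours that face each other tail to tail, with 16177 bases between them. COL5A1 (ENSSSCG00000005751) is at chr1:273934219-274083264 on the plus strand, and COL5A3 (ENSSSCG00000013667) at chr2:68828197-68869914 on the minus strand. Only COL5A2 shared exon bases with another gene, 78 with WDR75, so reads there could belong to either gene in these nondirectional libraries. The proteins that these gene models encode are alike enough to be aligned along most of their length. COL1A1 and COL1A2 were identical at 65.7% of aligned residues, COL1A1 and COL3A1 at 63.7%, COL5A1 and COL5A3 at 60.7% and COL5A1 and COL5A2 at 48.4%. By sequence COL5A3 was thus nearest to COL5A1, while COL5A2 was nearer to COL1A1, at 62.5%.

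The 6 genes moved together, so the DNA just before their starts was read, and it is shown for the collagen I pair and for COL5A1 with COL5A3, the pair of collagen V chains that are most alike as proteins. These are the 250 bases before the RefSeq start of COL1A1 (chr12:26397181-26397430, minus strand), COL1A2 (chr9:74174234-74174483, plus), COL5A1 (chr1:273933969-273934218, plus) and COL5A3 (chr2:68869915-68870164, minus), from the Sscrofa11.1 genome, 5′ to 3′. Capitals mark CCAAT (the CCAAT box), GGGCGG (the GC box) and TATAAA (the TATA box), each searched on both strands with no overlap between them.
COL1A1: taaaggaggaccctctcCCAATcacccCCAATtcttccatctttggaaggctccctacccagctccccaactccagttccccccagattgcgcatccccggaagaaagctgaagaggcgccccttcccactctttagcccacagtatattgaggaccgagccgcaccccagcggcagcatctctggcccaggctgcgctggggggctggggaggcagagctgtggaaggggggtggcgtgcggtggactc
COL1A2: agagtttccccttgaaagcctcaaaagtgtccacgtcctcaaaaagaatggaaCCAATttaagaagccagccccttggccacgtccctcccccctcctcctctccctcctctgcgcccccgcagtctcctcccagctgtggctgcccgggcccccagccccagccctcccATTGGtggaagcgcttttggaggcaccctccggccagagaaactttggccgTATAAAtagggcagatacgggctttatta
COL5A1: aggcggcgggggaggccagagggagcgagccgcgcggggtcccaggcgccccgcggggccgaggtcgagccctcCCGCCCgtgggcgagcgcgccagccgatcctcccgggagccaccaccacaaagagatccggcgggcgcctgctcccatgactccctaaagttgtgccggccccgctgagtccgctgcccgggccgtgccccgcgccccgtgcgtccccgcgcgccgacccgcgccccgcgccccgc
COL5A3: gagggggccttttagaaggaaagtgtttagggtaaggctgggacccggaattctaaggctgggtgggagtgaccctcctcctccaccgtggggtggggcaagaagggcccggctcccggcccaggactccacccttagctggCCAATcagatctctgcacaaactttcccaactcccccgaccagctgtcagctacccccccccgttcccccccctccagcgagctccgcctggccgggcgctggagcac
COL1A1 had CCAAT beginning 233 and 223 bases before the start. COL1A2 had CCAAT at 197 bases on the plus strand and at 80 bases on the minus strand, and TATAAA at 29 bases. COL5A3 had 1 CCAAT at 108 bases. COL5A1 and COL5A2 each had 1 GGGCGG on the minus strand, at 176 and 89 bases. The COL3A1 window held none of these letters. Among 19559 gene starts of the annotation, the same window held CCAAT in 31.9%, GGGCGG in 45.9% and TATAAA in 9.77%. These matches describe the letters only, and the starts are the annotation's, that of COL1A1 being a computed model.

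Border zone libraries held 15130210 to 30526110 counts and remote zone libraries 20091415 to 31618680. The 6 collagen genes took 0.278 to 7.99% (median 0.894%) of the counts in border zone libraries and 0.0864 to 0.186% (median 0.130%) in remote zone libraries. COL1A1 was the most counted of all genes in the border zone library of animal 1022, where COL3A1 took rank 3 and COL1A2 rank 6. In the other libraries it ranked lower, with a median rank of 32 over the border zone and of 325 over the remote zone. The fewest counts behind any value were the 323 of COL5A3 in a remote zone library, so counting error was small beside the spread between animals. The border zone library of animal 1022 stood apart from the others in its collagen values, so the collagen fold changes and ratios are also given without this animal. Animal 3622 differed in other ways. Its border zone library listed 28024 genes from the smallest total, against 17563 to 20148 in the other border zone libraries, and its remote zone library had the highest mitochondrial share of counts, 33.5%. Leaving it out kept the log2 fold change of COL1A1 high, at 4.42. It left none of the 6 genes past the threshold (lowest adjusted p = 0.0839 by edgeR), nor any other of the 13858 genes tested.

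All 6 collagen genes were fitted at higher levels near the infarct than in the remote zone, by 2.87-fold to 16.5-fold, and 5 of them passed an adjusted p of 0.05 by edgeR's quasi-likelihood test over 13844 genes. COL1A1 had the largest fold change, and COL5A3 the smallest and was the gene that did not pass. Among all genes tested, 2.06% were higher and past the threshold. That fit had region as its only term. With the animal as a block 0 of the 6 passed, against 0.289% of all genes upward. The values below are CPM, counts scaled to the TMM-normalized library size, and compare a gene with itself between libraries.

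COL1A1, which encodes the main chain of collagen I, had 878, 2632 and 30498 CPM as lowest, median and highest border zone values. In the remote zone the corresponding values were 235, 401 and 681 CPM. Every border zone library was above every remote zone library, and the border zone library of animal 1022 was 7.61 times as high as the next. The log2 fold change was 4.05 (standard error 0.81, adjusted p = 0.0295), or 16.5-fold. With the animal as a block it was 2.82 (standard error 0.75, adjusted p = 0.0821), or 7.08-fold, and did not pass. COL1A2, the partner chain of collagen I, had 386, 1228 and 9224 CPM in the border zone against 146, 241 and 367 CPM in the remote zone. Its groups did not overlap either, although the lowest border zone value was close above the highest remote zone value. The log2 fold change of COL1A2 was 3.27 (standard error 0.68, adjusted p = 0.0328). The block gave 2.37 (standard error 0.66, adjusted p = 0.0844).

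COL3A1, the only chain of collagen III, had border zone values of 1229, 3309 and 16947 CPM as lowest, median and highest. Its remote zone values were 359, 637 and 1048 CPM, again without overlap. In the fit it rose by 2.98 on the log2 scale (standard error 0.57, adjusted p = 0.0276), or 7.92-fold. With the animal as a block the value was 2.43 (standard error 0.62, adjusted p = 0.0814), or 5.40-fold.

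Of the collagen V genes, COL5A1 encodes the chain present in nearly all collagen V molecules. It had 231, 499 and 3333 CPM in the border zone and 81.8, 121 and 187 CPM in the remote zone. COL5A2, which encodes its usual partner chain, had 82.0, 204 and 1496 CPM in the border zone and 36.3, 45.4 and 60.2 CPM in the remote zone. Both were free of overlap between the regions. COL5A1 rose by 2.93 on the log2 scale (standard error 0.58, adjusted p = 0.0293). The block gave 2.26 (standard error 0.55, adjusted p = 0.0798). For COL5A2 the log2 fold change was 3.04 (standard error 0.63, adjusted p = 0.0338), or under the block 2.17 (standard error 0.55, adjusted p = 0.0814). COL5A3 encodes the chain of collagen V found in fewer tissues. Its border zone values of 22.7, 41.5 and 136 CPM overlapped the remote zone values of 12.0, 15.8 and 33.6 CPM. The log2 fold change of 1.52 (standard error 0.43) had an adjusted p = 0.0691 by edgeR, and 1.30 with the block (standard error 0.41) had an adjusted p = 0.0992. Of the alternatives run, the Wald test of DESeq2 (adjusted p = 0.0137) and the fit on library totals (adjusted p = 0.0215) put COL5A3 past the threshold.

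**Figure D1:**
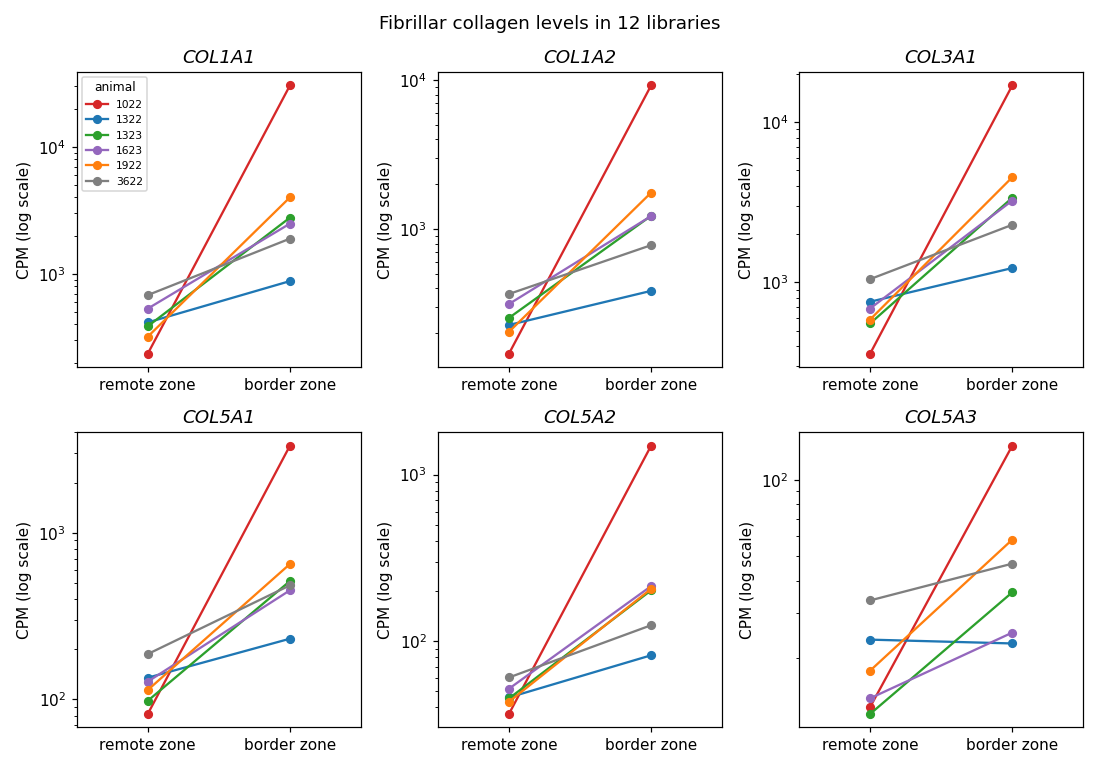
CPM of the 6 collagen genes (vertical axis, log scale, TMM-normalized counts) in the remote and border zone library of each animal, joined by a line and coloured by animal. The line of animal 1022 is the steepest in each panel, from 235 to 30498 CPM for COL1A1, and COL5A3 is the gene whose regions overlap.

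With the animal as a block in edgeR 0 of the 6 genes passed, where 0.289% of all genes did so upward. All 6 had an unadjusted p under 0.05 in that fit, as did 17.0% of all genes upward. With the Wald test of DESeq2, which had region as its only term and so ignored the pairs, all 6 passed upward. So did 8.62% of the genes with an adjusted p. The 5 genes whose border zone libraries all lay above the remote zone ones stand against 1.99% of genes tested with that pattern. The count of members past the threshold changed with the animal left out, as did that of all genes, 287 in the fit of 12 libraries. It was 5 without animal 1022 or without animal 1322, where 163 and 519 of all genes passed. It was 0 without animal 1323, 1623, 1922 or 3622, where 3, 0, 15 and 0 of all genes passed. There the adjusted p of the 6 genes by edgeR lay between 0.0839 and 0.190. These fits have 10 libraries in place of 12, and their fold changes were no smaller for COL1A1, at 4.09 to 4.42 on the log2 scale.

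Leaving out animal 1022 reduced every fold change and left the same 5 genes past the threshold, where 1.14% of genes passed upward. Without it the log2 fold change of COL1A1 was 2.37 (adjusted p = 0.0104 by edgeR), that of COL1A2 1.98 (adjusted p = 0.0179) and that of COL3A1 2.01 (adjusted p = 0.0130). COL5A1 was at 1.81 and COL5A2 at 1.75, both with an adjusted p = 0.0100 by edgeR. COL5A3 was at 0.91 (adjusted p = 0.193).

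Within animals the direction was shared more widely than the size. COL1A1, COL1A2, COL3A1, COL5A1 and COL5A2 each had more in the border than in the remote sample of 6 of 6 animals, a pattern held by 11.7% of genes tested. COL5A3 was higher in 5 of 6, and in animal 1322 its 2 libraries differed by -0.05 on the log2 scale. The difference of COL1A1 between the regions of an animal was 7.02 in animal 1022, 3.65 in animal 1922, 2.84 in animal 1323, 2.22 in animal 1623, 1.48 in animal 3622 and 1.08 in animal 1322, on the log2 scale. As ratios of levels, these run from 130-fold in animal 1022 to 2.12-fold in animal 1322. Every one of the other 5 genes put the animals in exactly this order. The within-animal difference was thus 5.98 to 0.76 for COL1A2, 5.56 to 0.70 for COL3A1, 5.35 to 0.78 for COL5A1 and 5.36 to 0.84 for COL5A2 from the first to the last animal, and 3.40 to -0.05 for COL5A3. The 6 genes come from the same libraries, so these 6 orders are not separate observations.

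**Figure D2:**
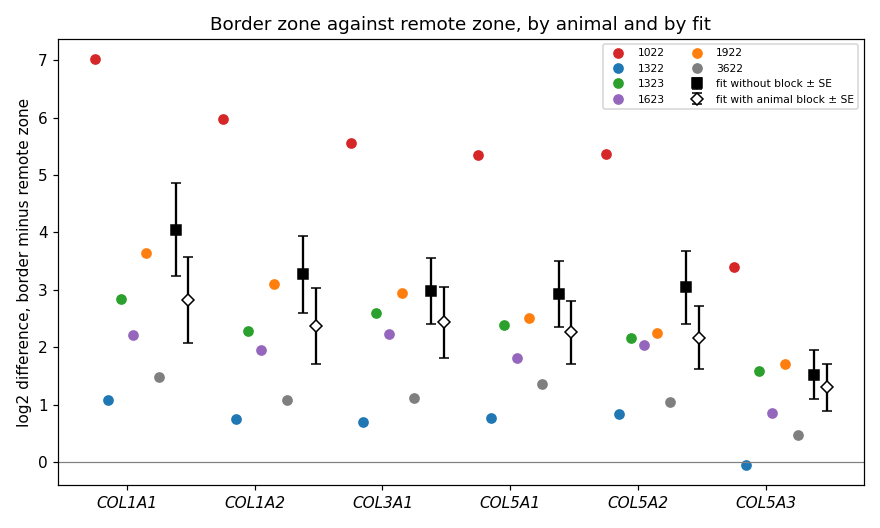
Difference between border and remote zone on the log2 scale (vertical axis) for each collagen gene. Coloured points are the 6 animals, and the black square and open diamond are edgeR's log2 fold changes ± standard error without and with the animal as a block. Animal 1022 is highest and animal 1322 lowest for each gene, and the block lowers the value of COL1A1 from 4.05 to 2.82.

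Animal 1022 held both extremes. Its border zone library was the highest for all 6 genes and its remote zone library the lowest for COL1A1, COL1A2, COL3A1, COL5A1 and COL5A2. Of the summed border zone CPM of COL1A1, 71.7% came from this 1 library, and of that of COL5A3 41.9%. The spread across border zone libraries was wide for the chains of collagen I, with an SD of 1.73 (n = 6) on the log2 CPM scale for COL1A1 and 1.53 for COL1A2, and between 0.94 and 1.44 for the other 4 genes. The median SD over all genes tested was 0.47 in the border zone, and that of COL1A1 was above 98.7% of genes. Without animal 1022 the SD (n = 5) was 0.82 for COL1A1, above 89.5% of genes, 0.84 for COL1A2 and 0.56 to 0.72 for the other 4, against a median over genes of 0.34. In the remote zone the SD of the 6 genes was 0.25 to 0.58, against a median over genes of 0.38. COL5A2 was the evenest of them there, with an SD of 0.25, above that of 23.9% of genes.

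Markers of the heart's cell types were read from the same libraries. The summed CPM of the 8 measured markers of cardiomyocytes, the contractile cells, was 9980 to 55503 at the border and 45529 to 80608 remotely, and was lower in the border zone of 6 of 6 animals. The 7 measured fibroblast markers summed to 1691 to 4991 CPM against 1026 to 2082 CPM, with the larger sum at the border in 5 of 6 animals, and 2 of the 7 (PDGFRA and LUM) passed the threshold upward, against 2.06% of all genes. All 7 were higher with an unadjusted p under 0.05 by edgeR, against 17.0%, and 6 of the 7, all but MFAP5, passed by DESeq2, against 8.62%. With the animal as a block neither passed (adjusted p = 0.0773 and 0.0798 by edgeR), and without animal 1022 LUM passed and PDGFRA did not (adjusted p = 0.0231 and 0.0797). No marker of any list was at 0 in a library. In animal 1022 the fibroblast markers were 4.26 times as high in the border zone as in the remote zone, the smooth muscle and pericyte markers 13.7 times and the macrophage markers 9.27 times, while the cardiomyocyte markers were 0.204 times as high. COL1A1 was 130 times as high there. Over all animals the 8 smooth muscle and pericyte markers summed to 505 to 3087 CPM at the border and 226 to 612 CPM remotely, and the 8 macrophage markers to 127 to 1473 CPM and 116 to 250 CPM. Both sums were larger at the border in 5 of 6 animals, as for the fibroblast markers, and of their 16 genes 0 passed the adjusted threshold by edgeR. By edgeR 15 of the 16 were higher with an unadjusted p under 0.05, against 17.0% of all genes, and by DESeq2 8 of the 14 with an adjusted p passed upward, against 8.62%. In the 5 animals other than 1022 the border sum was 0.885 to 2.34 times the remote one for smooth muscle and pericytes, 0.865 to 2.41 times for macrophages, 0.953 to 3.09 times for fibroblasts and 0.551 to 0.848 times for cardiomyocytes. In animal 3622 the summed fibroblast markers stood at 0.953 times and COL1A1 at 2.78 times the remote zone level. The fibroblast sums rest mainly on GSN, whose medians were 1648 CPM at the border and 887 CPM remotely, against 2407 and 1238 CPM. PDGFRA and LUM were higher at the border in 6 of 6 animals, and each other fibroblast marker in 5 of 6. Summed endothelial markers ranged from 341 to 495 CPM at the border and from 249 to 565 CPM remotely, with the border value above the remote one in 3 of 6 animals. In animal 1022 their border sum was 1.99 times the remote one, and in the other 5 animals 0.783 to 1.31 times. In bulk tissue, more cells of a type and more RNA per cell cannot be told apart, and the part of the cell makeup in the collagen values was not tested.

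The balance between the chains was compared next, as ratios of counts within a library, which do not depend on library scaling. Each ratio was compared between the regions by a two-sided exact permutation test over the 6 animals, whose smallest p is 0.03125, and p-values were adjusted over 8 ratios. The smallest adjusted p that was reached was 0.05, which is not under the threshold. COL1A2 stood at 0.302 to 0.492 counts per count of COL1A1 in border zone libraries and at 0.539 to 0.656 in remote ones, without overlap. The log2 difference was -0.52 ± 0.28 (SD, n = 6), lower in 6 of 6 animals (exact permutation test, p = 0.03125, adjusted p = 0.05). In every animal COL1A1 thus exceeded its partner chain by more at the border. COL3A1 per COL1A1 was 0.556 to 1.40 in border zone libraries and 1.29 to 1.83 in remote ones, with a log2 difference of -0.52 ± 0.51 (SD, n = 6), lower in 5 of 6 animals (exact permutation test, p = 0.0625, adjusted p = 0.0833). The regions overlapped, and animal 1022 was the only one with fewer COL3A1 than COL1A1 counts.

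Per count of COL1A1, all 3 collagen V chains were lower in the border zone of 6 of 6 animals, each with p = 0.03125 and adjusted p = 0.05 in the exact permutation test. The log2 difference was -0.68 ± 0.60 (SD, n = 6) for COL5A1, with 0.109 to 0.264 at the border against 0.240 to 0.355 remotely. It was -0.76 ± 0.62 for COL5A2, with 0.0490 to 0.0934 against 0.0885 to 0.154. Both ratios overlapped slightly between the regions. COL5A3 per COL1A1 was 0.00447 to 0.0259 at the border, below the remote range of 0.0260 to 0.0567, a log2 difference of -1.72 ± 0.98, and did not overlap. Because COL1A1 is the denominator of 5 of the 8 ratios, these 5 are not separate observations.

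Within collagen V, the ratio of the usual partner chains had no common direction. COL5A2 per COL5A1 was 0.257 to 0.473 at the border and 0.322 to 0.459 remotely, with a log2 difference of -0.08 ± 0.22 (SD, n = 6), higher in 3 animals and lower in 3 (exact permutation test, p = 0.4375, adjusted p = 0.4375). The individual differences ran from -0.33 to 0.23. COL5A3 per COL5A1 was lower in the border zone of 6 of 6 animals, at 0.0409 to 0.0983 against 0.108 to 0.179, without overlap. This log2 difference was -1.04 ± 0.45 (SD, n = 6; exact permutation test, p = 0.03125, adjusted p = 0.05), a ratio 0.487 times that of the remote zone. Without animal 1022 it was -0.86 ± 0.07 (n = 5), so the other 5 animals agreed closely in its size. COL5A2 per COL3A1, the pair of neighbouring genes on chromosome 15, differed by -0.24 ± 0.29 (SD, n = 6; exact permutation test, p = 0.09375, adjusted p = 0.107).

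Without animal 1022 all 8 differences kept their sign. They were then -0.42 for COL1A2, -0.33 for COL3A1, -0.48 for COL5A1, -0.58 for COL5A2 and -1.34 for COL5A3, each per COL1A1 on the log2 scale. The remaining ones were -0.10 for COL5A2 per COL5A1 and -0.25 for COL5A2 per COL3A1. With 5 animals the exact test cannot give a p under 0.0625.

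**Figure D3:**
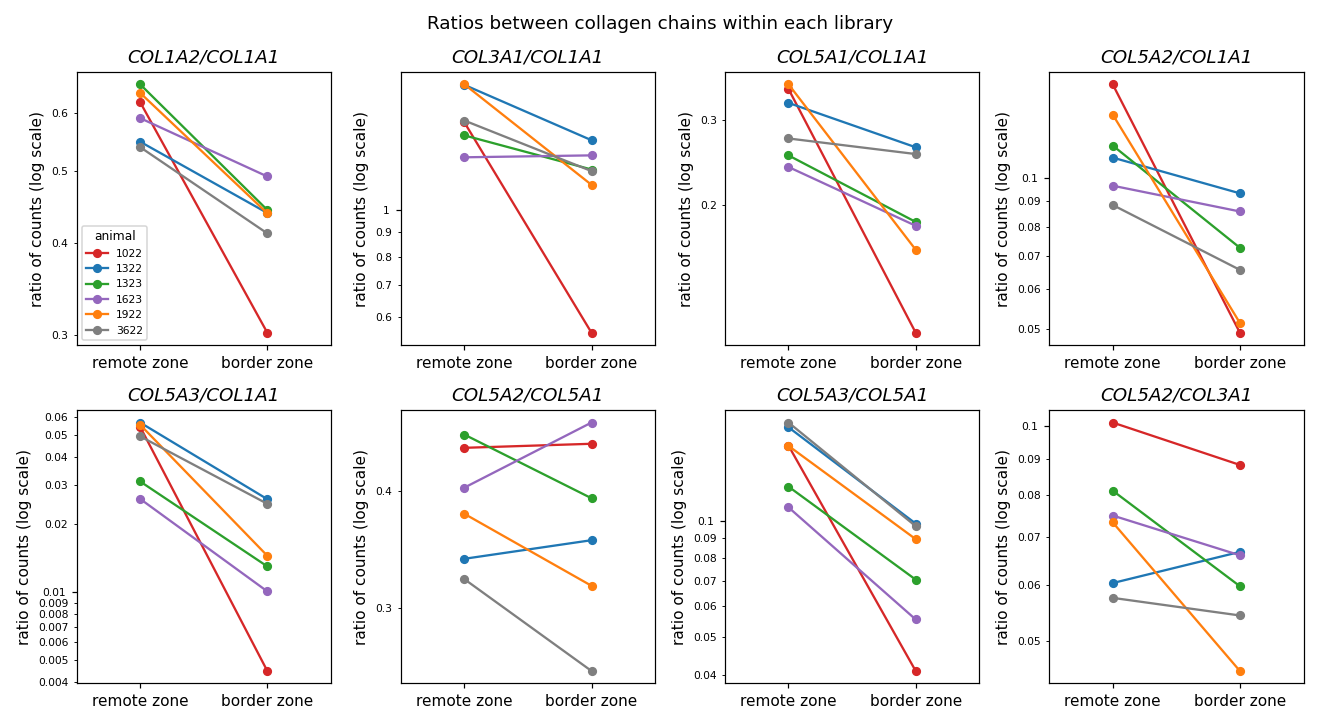
Ratios of counts between collagen chains within a library (vertical axis, log scale, each panel with its own range) in the remote and border zone of the 6 animals, joined by a line. COL1A2 per COL1A1 and COL5A3 per COL5A1 are lower in the border zone of every animal without overlap of the regions, whereas COL5A2 per COL5A1 has no common direction.

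The levels of different genes were compared after division by gene length, as CPM per kilobase of RefSeq exons. The counts were made on Ensembl gene models and the lengths are those of the RefSeq models, so a level set between genes depends on how far the models match, which was not tested. In both regions the order of the medians was COL3A1, COL1A1, COL1A2, COL5A1, COL5A2 and COL5A3. In the border zone the medians were 694, 429, 241, 84.9, 30.7 and 6.21 CPM per kilobase. In the remote zone they were 134, 65.3, 47.3, 20.6, 6.83 and 2.37 CPM per kilobase. Of 10 comparisons between neighbours in this order, 9 held in 6 of 6 libraries (exact permutation test, p = 0.03125, adjusted p = 0.0347). The order was taken from the medians of the same libraries, so these p-values describe how evenly it held and are no independent test of it. The exception was COL3A1 over COL1A1 in the border zone, higher in 5 of 6 libraries, by 1.40-fold on average (exact permutation test, p = 0.0625, adjusted p = 0.0625). In the remote zone COL3A1 was 2.01-fold above COL1A1 in CPM per kilobase. COL1A1 was 1.99-fold above COL1A2 in the border zone and 1.39-fold in the remote zone. COL5A1 exceeded COL5A2 by 3.09-fold in the border zone and 2.92-fold in the remote zone, and COL5A2 exceeded COL5A3 by 5.13-fold and 2.65-fold. Divided by coding length instead, COL3A1 was 1.09-fold above COL1A1 in the border zone (exact permutation test, p = 0.59375, adjusted p = 0.59375), since the RefSeq model of COL3A1 holds little untranslated sequence. In the remote zone it was then 1.56-fold above COL1A1. By coding length COL1A1 was 2.23-fold above COL1A2 in the border zone and 1.56-fold in the remote zone. COL5A1 was 2.23-fold and 2.11-fold above COL5A2, and COL5A2 5.95-fold and 3.07-fold above COL5A3.

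The other genes of the collagen pathway were taken as fixed lists, by the step at which they act. Of the genes below, those named had the largest fold changes among the ones past the adjusted threshold in their list, and log2 fold changes of border over remote zone are given. Of all genes tested 2.06% rose, and the counts of each list stand against that share. The median over all genes tested was 0.04, and that of the 6 collagen genes 3.01. Of 5 other fibrillar collagens, 3 were tested and 2 passed the threshold upward, COL11A1 and COL27A1, both of which are best known from cartilage. COL27A1 rose by 1.99. COL11A1 had a median of 6.23 CPM at the border (0.633 to 287) and 0.0520 CPM remotely (0 to 1.51). Of 15 genes of procollagen folding and hydroxylation 3 passed upward, with a list median of 0.78. These were P4HA3, a subunit of prolyl hydroxylase with a median of 2.58 CPM at the border (0.534 to 25.1) and 0.109 CPM remotely (0 to 0.401), FKBP10, a collagen chaperone (2.17), and COLGALT2, a galactosyltransferase of collagen (1.31). COL11A1 and P4HA3 had 0 counts in at least 1 remote zone library and passed the filter on low counts through the border zone libraries, where they were high. Their fitted folds depend on the prior count and are not given, and their passing adds no support. By the fit over 13844 genes, 1 of 2 other fibrillar collagens with at least 10 counts in every library rose. So did 2 of 14 such genes of folding and hydroxylation, with a list median of 0.75. When the fit itself was limited to genes with such counts, COLGALT2 passed (adjusted p = 0.0419 by edgeR). COL27A1 and FKBP10 then did not (adjusted p = 0.0581 and 0.0524 by edgeR). SERPINH1, the collagen chaperone HSP47, was at 0.78 with an adjusted p = 0.171 by edgeR, and it was named after its value was seen.

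Among 7 tested genes of propeptide removal 2 rose, the protease ADAMTS2 by 2.52 and the enhancer protein PCOLCE by 1.81. Of 6 cross-linking enzymes 3 rose, the lysyl oxidases LOX by 3.11, LOXL1 by 2.57 and LOXL2 by 1.58. Of 10 proteins that bind or regulate fibrils 8 rose, with a median of 3.17, close to that of the 6 collagens. The largest were fibronectin, FN1 (5.09), the proteoglycan fibromodulin, FMOD (4.83), and the fibril-surface collagen COL12A1 (4.66). POSTN, periostin, was the only gene of these lists past the threshold with the block (log2 fold change 2.78, adjusted p = 0.0410 by edgeR). With the block 0.289% of all genes passed upward, and POSTN was named after its value was seen. LUM and DCN of this list are also among the fibroblast markers.

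Of 7 collagen receptors 1 rose, the integrin subunit ITGA11, by 3.05. Of 4 tested genes of collagen degradation 2 rose, the gelatinase MMP2 by 2.27 and the collagen uptake receptor MRC2 by 1.83. Of 10 regulators of collagen genes 2 rose, the growth factor TGFB3 by 2.43 and the transcription factor CREB3L1 by 2.37. TGFB1, also named after its value was seen, had 0.26 (adjusted p = 0.475 by edgeR). None of the lists held a gene that was lower past the threshold, in a comparison where 285 of the 287 genes past it were higher. Without animal 1022, COL11A1, COL27A1, COLGALT2, PCOLCE, MRC2 and CREB3L1 no longer passed. The other 12 of these 18 genes, P4HA3 among them, did with lower values, against 1.14% of all genes upward. The 18 were chosen for passing on largely the same libraries, so this count is no separate support. Without this animal the log2 fold change was 2.71 for FN1, 2.90 for FMOD, 2.85 for COL12A1, 1.92 for LOX and 1.83 for LOXL1. It was 1.70 for ITGA11, 1.75 for ADAMTS2, 1.25 for FKBP10, 1.40 for MMP2, 1.85 for TGFB3 and 1.11 for LOXL2. Of those that did not pass, COL27A1 was at 1.39, CREB3L1 at 1.56, MRC2 at 1.13 and PCOLCE at 1.21. COLGALT2 kept its value of 1.31 and did not pass either (adjusted p = 0.0893 by edgeR). The list median was 1.95 for the fibril-binding proteins, 1.11 for cross-linking and 0.44 for folding and hydroxylation, against 1.89 for the 6 collagens. With the animal as a block in edgeR 0 of the 18 passed, and FN1 was at 3.20. All 18 had an unadjusted p under 0.05 there, against 17.0% of all genes upward, which is no separate support since they were chosen for passing on the same libraries.

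**Figure D4:**
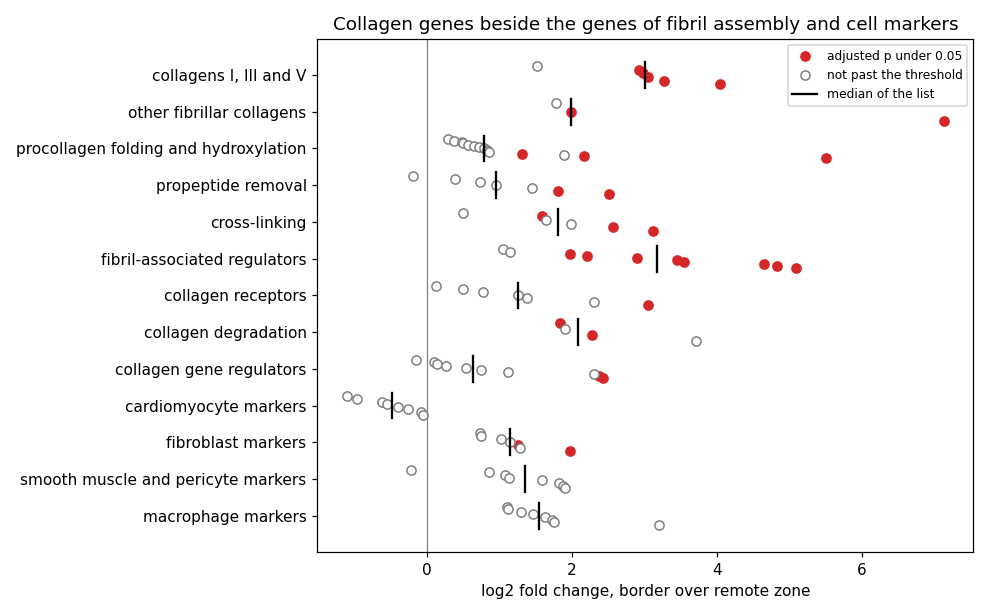
Log2 fold change of border over remote zone (horizontal axis) for the collagen genes, the lists of the collagen pathway and 4 of the cell marker lists, 1 point per gene. Filled points passed an adjusted p of 0.05 by edgeR, open points did not, and bars are list medians, 3.01 for the 6 collagens, 3.17 for the fibril-associated regulators and 0.78 for folding and hydroxylation.

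Across the 12 libraries the log2 CPM of the 6 genes varied together, as a description over libraries that share the split by region and the extreme border zone library of animal 1022. Pearson's r was highest between COL1A1 and COL1A2 (0.997) and lowest between COL5A2 and COL5A3 (0.888). Between COL1A1 and COL5A2 it was 0.991. Without animal 1022, over 10 libraries, these were 0.993, 0.718 and 0.985, and COL5A3 had 0.718 to 0.857 with the other 5 genes. Among 11720 genes with a symbol other than these 6, the nearest to COL1A1 were COL14A1, a collagen on the surface of fibrils (0.996), the proteoglycan PRELP (0.993) and COL6A3, a chain of the beaded-filament collagen (0.992). COL14A1 and PRELP were also nearest to COL1A2, followed by CYBRD1, a ferric reductase (0.986). COL3A1 was nearest to MMP2 (0.990), COL14A1 and the ephrin receptor EPHB3. COL5A1 was nearest to COL6A3 (0.995), PRELP and SSC5D, and COL5A2 to CYBRD1 (0.996), PRELP and the proteoglycan versican, VCAN. COL5A3 had the lowest of these values, with MRC2 (0.985), SERPING1, a complement inhibitor, and CORO2B. Over the 10 libraries without animal 1022, r of these genes with their members was 0.951 to 0.992.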

How the data were processed

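For each library the deposited values are raw read counts on 35682 genes. Per the labels and methods, nondirectional poly(A) libraries were sequenced as 150 bp paired ends, checked with FastQC 0.12.1 and MultiQC 1.17, aligned to Sscrofa11.1 (Ensembl release 113) with STAR 2.7.10a and counted with featureCounts 2.16.1, whose options for reads matching several genes are not given in the sources used here.

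Genes were filtered by filterByExpr (13844 left), scaled by TMM and tested with edgeR 4.0.16 (quasi-likelihood, robust, region as the only term) in R 4.3.3 with limma 3.58.1, with Benjamini-Hochberg adjustment over all genes. Standard errors were obtained from the log2 fold change and the F statistic (their quotient, after taking the root of F). Log2 CPM used a prior count of 2 and ratios a pseudocount of 0.5 counts. DESeq2 1.42.0 was an alternative and gave no adjusted p for FN1, ITGA11, ACTA2 and CSF1R among the list genes tested. Exact tests used Python 3.11.15 with NumPy 2.4.6, SciPy 1.17.1 and pandas 2.3.3. Same-numbered libraries are from the same animal and so are paired. The deviations from region means correlated within animals by -0.03 to 0.57 across genes, over 0.1 in 4 of 6. No 2 libraries of a region agreed within counting noise (lowest chi-square per gene 27.6). The edgeR fit without a block, the DESeq2 test and the exact test over within-animal differences were tested on simulated data. The spread between animals includes that of treatment, and PCR copies were not told apart.

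List medians, marker sums, correlations and SDs without animal 1022 were added after the values were seen. The genes and lists were chosen with earlier results of these data known. Named genes were the 6 members, up to 3 per list with the largest fold change among those past the threshold, and the 3 nearest to each member by correlation. COL2A1, COL11A2, TLL1, MMP1, MMP8 and MMP13 did not pass the filter, and MYH7, MB and THY1 had no identifier in the table of symbols.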

Additional observations from a re-analysis of the deposited data

Results flagged for a closer look

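In 30 groups of 6 libraries (the log2 CPM of each collagen gene, each log2 ratio between chains and the share of counts, in each region) Dixon's gap-to-range ratio was computed for the extreme library. By chance about 1 in 20 groups would have such a library. In 4 groups a library stood apart, each time the border zone library of animal 1022.

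The 6 collagen genes took 7.99% of its counts, against 1.16% in the next border zone library. Its log2 CPM of COL5A2 was 10.55, against 7.74 in the next. Its log2 ratio of COL1A2 to COL1A1 was -1.73, against -1.28 in the next lowest library, and its log2 ratio of COL3A1 to COL1A1 was -0.85, against 0.18. These 4 measures come from the same counts and are not separate observations. No group of remote zone libraries had such a library, and no cause was tested.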

How the results depend on the processing

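The 6 collagen genes kept their direction under all alternatives run. Of their 78 alternative values, 48 stayed on the same side of the threshold, 28 lost it and 2 gained it. Of 230 alternative values of the 18 named list genes, 107 stayed and 123 lost it. All ratio differences kept their sign. Between regions, 287 genes passed, against 41 with the replicate block, 1476 by DESeq2, 1551 with library totals, 139 with no filter, 149 with at least 10 counts in every library, and 0 to 519 with an animal left out. The 5 members past the threshold became 0 with the replicate block, 2 with no filter and 0 to 5 with an animal left out. The 23 list genes became 1 with the replicate block, 36 by DESeq2, 43 with library totals, 5 with no filter and 0 to 27 with an animal left out. Beside the counts of 0 without animal 1623 or 3622, 2662 and 2448 genes had an unadjusted p under 0.05 by edgeR. The cause was not tested, except that no filter tested 30085 genes and that an animal left out removes 2 libraries.

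With no replicate block, in an exact permutation test over 12 libraries, 6 ratios passed, with log2 differences of -0.52 for COL1A2, -0.52 for COL3A1, -0.68 for COL5A1, -0.76 for COL5A2 and -1.72 for COL5A3 per COL1A1 and -1.04 for COL5A3 per COL5A1 (adjusted p = 0.00577, 0.0104, 0.0202, 0.00866, 0.00577 and 0.00577 by permutation). In the order of levels, set by the medians of the same libraries, 9 of 10 neighbours passed, which is no independent test. With any animal left out 0 passed, since 5 libraries cannot reach the threshold. With library totals the median over genes tested was 0.32 on the log2 scale, against 0.04.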
